A study of Homo sapiens with 9 samples.

Results

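The mitochondrial protein import machinery is the set of complexes that carries proteins made in the cytosol across or into the mitochondrial membranes. Its genes were taken from a deposited table of RNA levels as every protein-coding gene whose symbol begins with TOMM or TIMM, or is PAM16, DNAJC15, DNAJC19, CHCHD4, GFER, SAMM50, MTX1, MTX2, MTX3, PMPCA or PMPCB. The rule found 33 of the 22290 genes in the table, of which 14697 are protein-coding. A further 5 symbols matched but belong to 3 pseudogenes and 2 long non-coding RNAs, and were left out. TOMM5, TOMM6, TIMM10B, TIMM17B and TIMM23B were not analysed here because the table gives them no value. One of the 33, TIMM23B-AGAP6, is a readthrough transcript that joins a TIMM23 copy to its neighbour.

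The study sequenced RNA from cells of the human neuroblastoma line IMR-32 with altered amounts of TRAP-1, a chaperone of the HSP90 family that works in the mitochondrial matrix. There are 9 libraries in 3 groups of 3, labelled parental (genotype WT), KD (TRAP-1 knockdown) and OE (TRAP-1 overexpression). Each engineered group is a line made earlier, and RNA was isolated in triplicate from each line, so that line and group cannot be told apart. Nothing in the records says that the replicates were separate cultures, and the p-values below measure the spread between these libraries. Values are rlog values, which are read counts adjusted for library size, on a log2 scale, and pulled toward the average of their gene the more so the fewer the reads. Differences on this scale are therefore smaller than ratios of counts for weakly read genes. The table holds no counts, so the depth of each library cannot be read from it. Taken back from log2, the values of a library sum to between 34928732 (OE replicate 2) and 35211774 (parental replicate 2).

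The target of the engineering was read first. TRAP1 (ENSG00000126602) had rlog values of 10.67, 10.66 and 10.65 in parental libraries, 10.79, 10.79 and 10.83 in those labelled KD and 10.67, 10.63 and 10.74 in those labelled OE. The libraries labelled KD all lay above the parental ones, and those labelled OE overlapped with parental. TRAP1 rose by 0.14 on the log2 scale in the libraries labelled KD (95% confidence interval 0.088 to 0.19), with a limma adjusted p of 1.76e-05. In the libraries labelled OE it differed from parental by 0.018 (limma adjusted p 0.643, interval -0.033 to 0.069). With the median difference of the genes in the same 20-Mb block of the chromosome taken off (block medians, in what follows), the libraries labelled OE were called higher, by 0.068 (limma adjusted p 0.0209). As deposited, the TRAP1 RNA in this table does not follow the labels, and the groups are called the libraries labelled KD and labelled OE throughout. The table does not measure TRAP-1 protein. Other genes on either strand share 28.5% of the TRAP1 exonic bases, and the library kit keeps no strand. The TRAP1 value may therefore hold reads of those genes or miss reads of its own.

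The line named on the labels was checked against marker genes. Marker values are not per length. Of 15 markers of adrenergic neuroblastoma 10 had a value, and their summed 2-to-the-rlog values ran from 1836.9 to 2018.2 per library. MYCN, for whose amplification IMR-32 is known, had a mean rlog value of 2.52 ± 0.045 (SD, n = 3) in parental libraries, PHOX2A 1.33 ± 0.029 and TH 2.84 ± 0.017, all close to the floor of the table. The other 7 had mean rlog values over all libraries from 3.97 for CHGA to 9.29 for ISL1, with GATA2 at 9.20, ALK at 8.60, GATA3 at 7.27, HAND2 at 6.34 and CHGB at 5.77. All 10 mesenchymal markers had a value, summing to 81144.4 to 97328.8 per library, with VIM highest. COL3A1 at 1.16, COL1A2 at 1.37, DCN at 3.07 and COL1A1 at 4.18 were at or near the floor. Of 14 epithelial markers 11 had a value, with KRT18 highest and sums of 6286.1 to 7465.9. Of 5 blood markers 2 had a value, PTPRC the higher, with sums of 8.5 to 8.8. The markers are thus divided, with MYCN and PHOX2A going against the label IMR-32 and ISL1, GATA2 and ALK well above the floor, and the cells are described here by their labels only. Some markers were called between the groups, in shares to be read against all genes, of which 26.9% rose and 26.9% fell in the libraries labelled KD and 16.9% rose and 18.0% fell in those labelled OE. Of the 10 mesenchymal ones 4 rose and 2 fell in the libraries labelled KD and 5 rose in those labelled OE, and COL1A1, COL1A2, COL3A1 and DCN were not called in those labelled KD. VIM averaged 15.72 in parental libraries, 16.09 in those labelled KD and 15.87 in those labelled OE, and PRRX1 11.70, 12.99 and 12.39. FN1 averaged 13.97, 13.01 and 14.52. Of the 11 epithelial markers 2 rose and 3 fell in the libraries labelled KD, and 1 rose and 5 fell in those labelled OE. Among them KRT14 differed by -0.70 and KRT8 by 0.39 in those labelled KD, and CLDN4 by -0.57 in those labelled OE. Of the adrenergic markers 5 fell and 2 rose in the libraries labelled KD, and 3 fell in those labelled OE. The part of these shifts in the differences of the import genes was not tested, and fewer cells of a kind and less RNA per cell cannot be told apart.

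Nearly all mitochondrial proteins are encoded in the nucleus and enter through the TOM complex of the outer membrane, where TOMM20, TOMM22 and TOMM70 are receptors and TOMM40 forms the pore. From there, barrel proteins go to the SAM complex, small cysteine-rich proteins to the CHCHD4 and GFER disulfide relay of the intermembrane space, carriers to the TIM22 complex by way of small TIM chaperones, and proteins with a presequence to the TIM23 complex and its PAM motor. In the matrix a peptidase of PMPCA and PMPCB cuts the presequence off, and in the nervous system the route is known for a syndrome of deafness and dystonia that follows loss of TIMM8A.

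In parental cells the import genes covered a wide range of levels. Levels of different import genes are compared per length, as the rlog value minus the log2 of the length of the MANE Select transcript in kilobases, which 32 of the 33 have. TOMM7, a small subunit that tunes the TOM complex, stood highest at 13.45 ± 0.030 (SD, n = 3), ahead of TOMM20 at 12.32 ± 0.014. TOMM40 followed at 11.44 ± 0.0072, apart from the group of TIMM10 at 11.28 ± 0.057, TIMM17A at 11.23 ± 0.023, TIMMDC1 at 11.22 ± 0.026 and TIMM23 at 11.20 ± 0.0077, in which each gene overlapped with the next. On this length the outer channel and its main receptor were read more than any inner membrane subunit. Towards the lower end, GFER stood at 6.46 ± 0.13 and DNAJC15 at 5.97 ± 0.042. TOMM20L at 3.05 ± 0.017, PAM16 at 2.17 ± 0.023 and TIMM9 at 0.43 ± 0.012 were near the floor, although TIMM9 is a core small TIM chaperone and PAM16 a core motor subunit. Other genes cover 26.6% of the exonic bases of TIMM9 and 22.4% of those of PAM16. Shares of 30.1% in TIMM8B and 29.4% in TIMMDC1 went with mean rlog values of 9.88 and 12.49 over all libraries. The values of TIMM9 and PAM16 may miss reads and need not measure their expression, and the cause of these low values was not tested. TOMM20L, PAM16 and TIMM9 are also the only ones with a mean rlog value under 5, and the other 30 lie above it. The order depends on the length used. With all annotated exons, a choice made after the data had been seen, TOMM20 stood highest at 12.25, followed by TOMM7 at 11.46 and TIMM23 at 11.20, and TOMM40 at 10.41 lay below TIMM23, TIMM10 and TOMM22 among others.

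**Figure D1:**
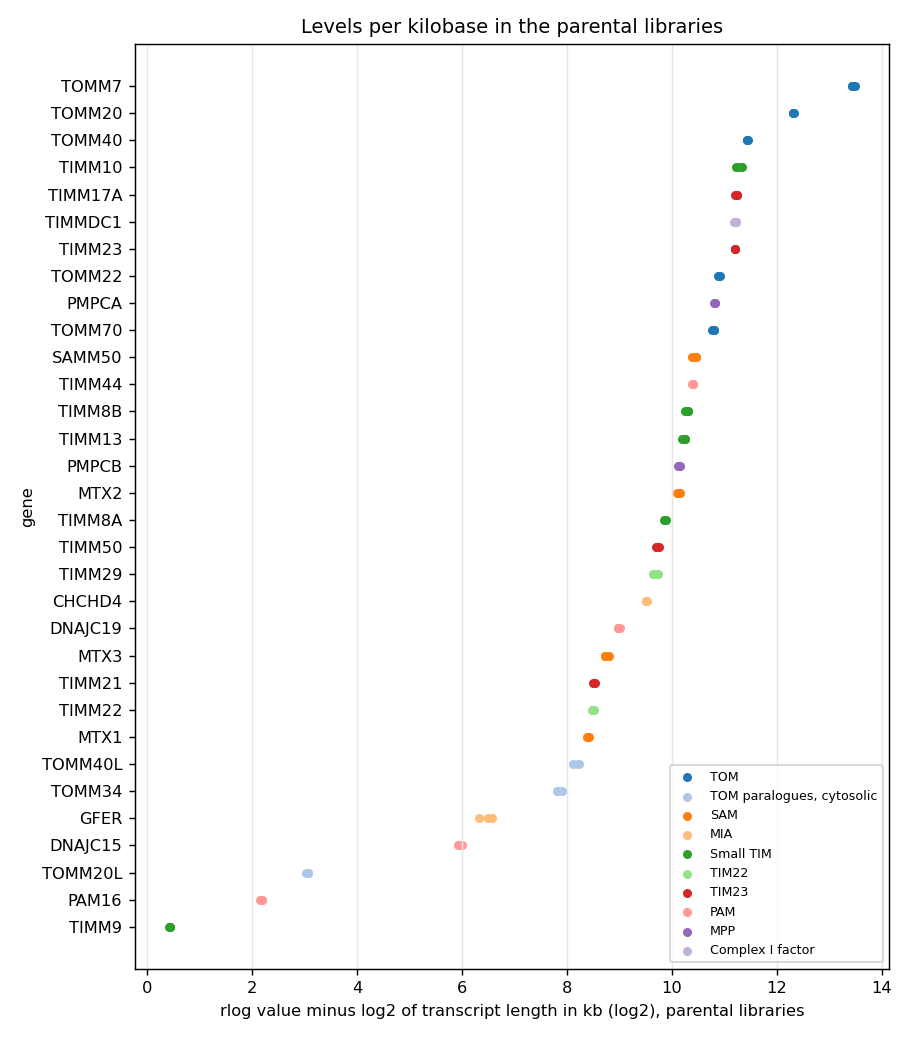
Levels per kilobase of 32 import genes in the 3 parental libraries, as the rlog value minus the log2 of transcript length in kilobases (horizontal axis, log2), 1 point per library, coloured by complex. TOMM7 at 13.45 ± 0.030 and TOMM20 at 12.32 ± 0.014 stand highest, and TIMM9 at 0.43 ± 0.012 lowest.

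The libraries differed more between groups than within them. Over the 33 genes, the root mean square difference between a pair of libraries of the same group was 0.0386 to 0.0655 on the log2 scale. Across groups the range was 0.105 to 0.199.

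**Figure D2:**
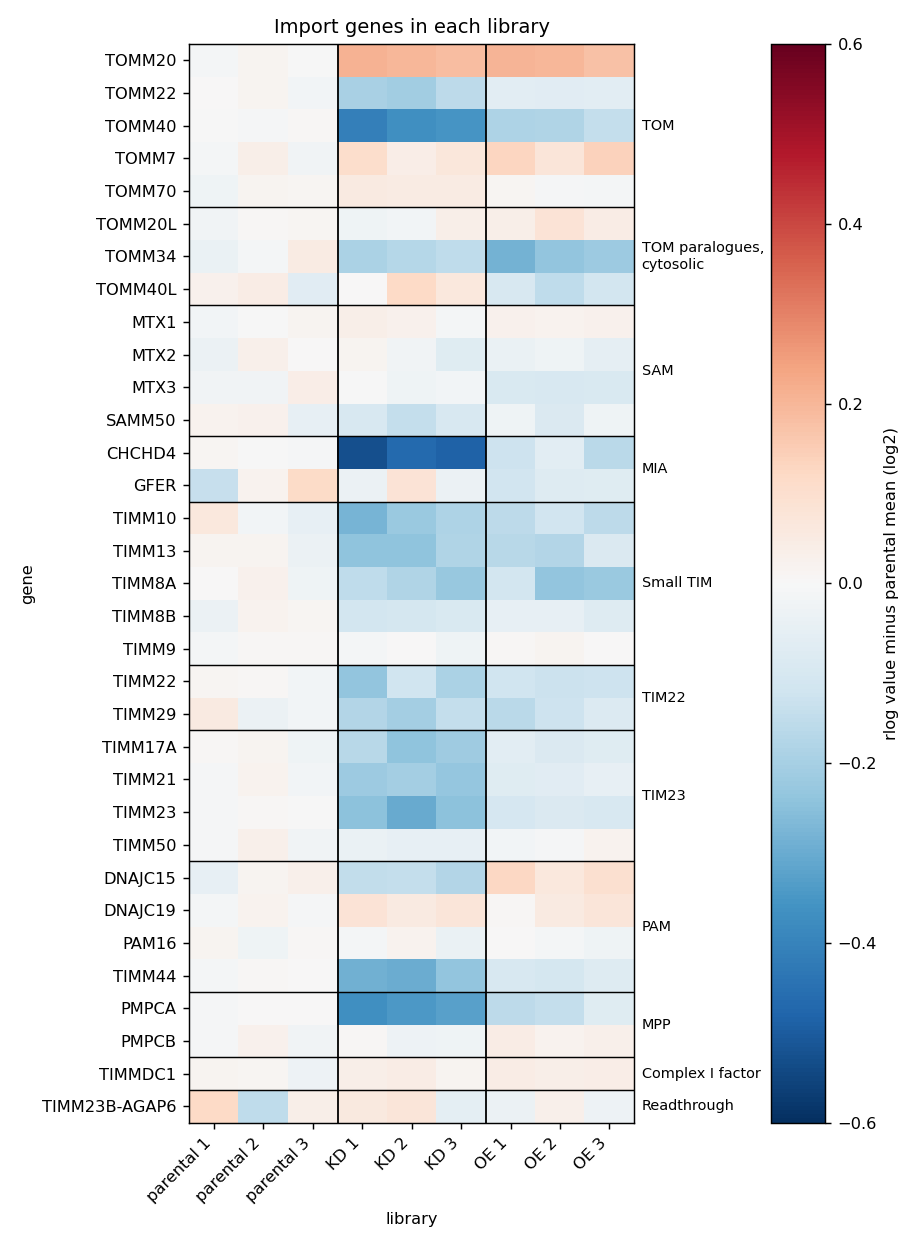
Each of the 33 import genes (vertical axis, by complex) in each of the 9 libraries (horizontal axis), coloured by the rlog value minus the parental mean (log2). CHCHD4, TOMM40 and PMPCA are lowest in the 3 libraries labelled KD, and TOMM20 is higher in all 6 engineered libraries than in the parental ones.

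The promoters of 3 genes on which the comparisons below turn are shown first, the genes with the largest called decreases, CHCHD4 and TOMM40, and the one with the largest called increase, TOMM20, in the libraries labelled KD. Each line is the 250 bases before the annotated start from RefSeq, build GRCh38.p14, 5′ to 3′ on the strand of the gene. CHCHD4 lies on the minus strand at chr3:14124871-14125120, TOMM40 on the plus strand at chr19:44891004-44891253 and TOMM20 on the minus strand at chr1:235128838-235129087. In the gene annotation used for the RNA values here, TOMM40 starts earlier, at base 44890569, so that its window lies inside the gene. Its motif positions below hold for the RefSeq start only. Capitals mark the bases that match any of 8 short motifs described further on.
CHCHD4: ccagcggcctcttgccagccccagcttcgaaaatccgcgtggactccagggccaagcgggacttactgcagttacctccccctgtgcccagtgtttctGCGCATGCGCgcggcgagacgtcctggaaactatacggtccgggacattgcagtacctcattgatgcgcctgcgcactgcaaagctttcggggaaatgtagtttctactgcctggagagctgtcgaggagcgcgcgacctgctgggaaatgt
TOMM40: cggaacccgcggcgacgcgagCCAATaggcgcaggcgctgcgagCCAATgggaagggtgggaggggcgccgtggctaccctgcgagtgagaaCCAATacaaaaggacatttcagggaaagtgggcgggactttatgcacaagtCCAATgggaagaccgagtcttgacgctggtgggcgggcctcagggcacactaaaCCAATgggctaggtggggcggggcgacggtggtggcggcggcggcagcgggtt
TOMM20: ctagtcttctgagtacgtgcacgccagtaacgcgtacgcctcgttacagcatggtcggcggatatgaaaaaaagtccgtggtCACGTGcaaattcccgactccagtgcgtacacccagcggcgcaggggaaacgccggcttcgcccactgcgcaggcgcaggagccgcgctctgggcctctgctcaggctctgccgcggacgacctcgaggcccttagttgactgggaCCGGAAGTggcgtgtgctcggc
In CHCHD4 the capitals are overlapping forms of the core of the nuclear respiratory factor 1 motif, the first of them 152 bases before the start. In TOMM40 they are 5 copies of CCAAT, at 229, 206, 158, 107 and 53 bases before the start. In TOMM20 they are an E-box at 168 bases and an ETS motif at 22 bases before the start.

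The comparison of the libraries labelled KD with parental asks how the import genes differ in the line made to hold less TRAP-1. Here 18 of the 33 genes fell, 4 rose and 11 were not called, at a Benjamini-Hochberg adjusted p under 0.05 in limma over all 22290 genes. Among all genes 26.9% fell and 26.9% rose, so the share of import genes that fell, 54.5%, was above that background and the share that rose, 12.1%, below it. The median difference of the 33 genes was -0.10 on the log2 scale (0.931-fold), against -0.00051 for all genes. With genes of a mean rlog value under 5 left out of the fit, 36.7% of 14000 genes fell and 36.1% rose. By the calls over all genes, 60% of the 30 import genes at that level fell and 13.3% rose, against 36.2% and 35.6% of those 14000. The inner and the outer membrane differed in their counts. Of 19 genes of the intermembrane space, inner membrane and matrix, 14 fell and 1 rose, with a median of -0.18. Of 11 outer membrane genes, TOM and SAM with the TOM paralogues, 3 fell and 3 rose, with a median of -0.0028. TIMM22 and TIMM29 of the TIM22 complex fell, as did TIMM17A, TIMM21, TIMM23 and TIMM50 of the TIM23 complex and 4 of 5 small TIM chaperones. The remaining 3 genes are TOMM34, which acts in the cytosol, TIMMDC1, which does not take part in import, and TIMM23B-AGAP6.

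CHCHD4 had the largest difference of the 33 genes in the values as deposited, but not after the shift of its chromosomal surroundings was taken off (-0.17, against -0.39 for TOMM40). It encodes the oxidoreductase that traps small proteins in the intermembrane space by oxidising their cysteines, and lies at chr3:14112077-14124870 (ENSG00000163528). CHCHD4 gave 10.04, 10.03 and 10.02 in parental libraries, 9.50, 9.56 and 9.55 in those labelled KD and 9.91, 9.97 and 9.87 in those labelled OE. The libraries labelled KD were all below the others. Its level fell by 0.49 on the log2 scale (0.711-fold, 95% confidence interval -0.55 to -0.43, limma adjusted p 6.02e-16). GFER, the sulfhydryl oxidase that reoxidises CHCHD4, differed by 0.0036 (limma adjusted p 0.957), and other genes cover 41.5% of its exonic bases.

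The TOM complex was split. TOMM40, the pore itself (ENSG00000130204), had values of 12.26, 12.25 and 12.27 in parental libraries, 11.85, 11.89 and 11.91 in those labelled KD and 12.07, 12.08 and 12.12 in those labelled OE. Every library labelled KD was below every other library. TOMM40 fell by 0.38 (0.77-fold, interval -0.42 to -0.34, limma adjusted p 8.49e-18). TOMM22, the central receptor that holds the pores together, fell by 0.19 (limma adjusted p 2.85e-10). TOMM20, the main presequence receptor (ENSG00000173726), went the other way, with 14.02, 14.05 and 14.03 in parental libraries, 14.24, 14.23 and 14.22 in those labelled KD and 14.24, 14.23 and 14.21 in those labelled OE. All 6 engineered libraries lay above all 3 parental ones. TOMM20 rose by 0.20 in the libraries labelled KD (1.15-fold, interval 0.17 to 0.22, limma adjusted p 3.57e-15).

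The other 2 TOM genes that rose did so by little. TOMM7 measured 12.24, 12.28 and 12.23 in parental libraries, 12.35, 12.29 and 12.31 in those labelled KD and 12.38, 12.32 and 12.39 in those labelled OE. It rose by 0.069 in the libraries labelled KD (interval 0.029 to 0.11, limma adjusted p 0.00372), with all 3 above parental. TOMM70, the receptor for carriers and other hydrophobic precursors, measured 12.79, 12.84 and 12.83 in parental libraries, 12.88, 12.87 and 12.87 in those labelled KD and 12.83, 12.82 and 12.81 in those labelled OE. Its rise of 0.052 (interval 0.020 to 0.083, limma adjusted p 0.00526) was also seen in all 3. It was no longer called without parental replicate 1, at 0.038 and limma adjusted p 0.0603, and with block medians taken off it was called lower, at -0.042 (0.0198). SAMM50, the core of the SAM complex, fell by 0.11 (limma adjusted p 0.000162), and MTX1, MTX2 and MTX3 were not called. TOMM34, a cytosolic cochaperone of import, is described with the libraries labelled OE and fell by 0.17 here (limma adjusted p 7.34e-05).

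In the inner membrane the TIM23 genes TIMM17A, TIMM21, TIMM23 and TIMM50 fell. Another TIM23 subunit, ROMO1, is on the list of other import genes and fell by 0.24 (limma adjusted p 1.41e-10), but was higher with block medians taken off (0.085, 0.00239). TIMM23, the channel of the TIM23 complex (ENSG00000265354), had values of 11.45, 11.46 and 11.45 in parental libraries, 11.21, 11.15 and 11.20 in those labelled KD and 11.35, 11.36 and 11.36 in those labelled OE. The 3 groups did not overlap, with those labelled KD lowest. TIMM23 fell by 0.26 (0.832-fold, interval -0.31 to -0.22, limma adjusted p 8.85e-13). The gene has a near-identical copy, TIMM23B, so that the assignment of its reads is uncertain. TIMM17A, its partner in the channel, had values of 11.96, 11.97 and 11.92 in parental libraries, 11.78, 11.71 and 11.74 in those labelled KD and 11.89, 11.86 and 11.88 in those labelled OE. With every library labelled KD below the rest, TIMM17A fell by 0.21 (limma adjusted p 1.09e-10), and its paralogue TIMM17B was not analysed here. TIMM21, which couples TIM23 to TOM and to the respiratory chain, fell by 0.22 (limma adjusted p 7.62e-09). TIMM50, the presequence receptor, fell by only 0.047 (limma adjusted p 0.0279). That call was lost without KD replicate 2 (limma adjusted p 0.0754, fell by 0.046), KD replicate 3 (0.0612, fell by 0.046) or parental replicate 2 (0.175, fell by 0.033), with no variance trend (adjusted p 0.0655) and under quantile normalization (0.114), and TIMM50 was at -0.0030 (0.899) with block medians taken off.

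The motor that pulls presequence proteins into the matrix was mixed. TIMM44, the scaffold that ties the motor to the channel (ENSG00000104980), gave 11.27, 11.29 and 11.29 in parental libraries, 10.99, 10.99 and 11.04 in those labelled KD and 11.18, 11.18 and 11.20 in those labelled OE. Here too the groups did not overlap. TIMM44 fell by 0.27 (0.827-fold, interval -0.32 to -0.23, limma adjusted p 8.29e-13). DNAJC15 and DNAJC19 are J-domain proteins of the inner membrane that are alternative partners of the motor. DNAJC15 gave 8.82, 8.89 and 8.90 in parental libraries, 8.73, 8.73 and 8.70 in those labelled KD and 8.996, 8.93 and 8.97 in those labelled OE. It fell by 0.16 in the libraries labelled KD (interval -0.22 to -0.087, limma adjusted p 0.00017), all of which were below parental. DNAJC19 gave 9.48, 9.51 and 9.48 in parental libraries, 9.57, 9.54 and 9.56 in those labelled KD and 9.49, 9.54 and 9.56 in those labelled OE. Its rise of 0.069 (interval 0.010 to 0.13) only just passed, at limma adjusted p 0.0433. With block medians taken off it was lower, at -0.16 (1.47e-05). The call was lost without any one of KD replicates 1, 2 or 3 (differences of 0.063, 0.077 and 0.067, limma adjusted p 0.112, 0.0544 and 0.0885), without parental replicate 1 (0.063, 0.111) or 3 (0.065, 0.099), with a robust variance prior (limma adjusted p 0.0538), and with library medians centred (0.058, 0.0911). Without parental replicate 1, 2 of the 33 genes rose in place of 4, as DNAJC19 and TOMM70 (then 0.038, limma adjusted p 0.0603) were not called.

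TIMM22, TIMM29 and 4 of 5 small TIM chaperones fell, as did the TIM22 subunit AGK of the other import genes, by 0.082 (limma adjusted p 0.00113), while TIMM9 differed by -0.012 (limma adjusted p 0.49) and the carrier receptor TOMM70 rose in the values as deposited. TIMM22, the carrier channel, fell by 0.18 and TIMM29, its metazoan partner, by 0.17 (limma adjusted p 1.07e-06 and 4.3e-06). TIMM10, a subunit of the chaperone ring that escorts carriers across the intermembrane space, gave 10.76, 10.68 and 10.65 in parental libraries, 10.42, 10.47 and 10.51 in those labelled KD and 10.54, 10.58 and 10.54 in those labelled OE. All libraries labelled KD and OE were below all parental ones. TIMM10 fell by 0.23 in those labelled KD (limma adjusted p 1.29e-08). TIMM13, which pairs with TIMM8A in a second ring, gave 10.99, 10.99 and 10.94 in parental libraries, 10.73, 10.73 and 10.79 in those labelled KD and 10.81, 10.79 and 10.88 in those labelled OE. It fell by 0.22 (limma adjusted p 6.01e-09), and neighbours cover 20.1% of its exonic bases.

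Processing of the imported presequence involves a catalytic and a recognition subunit, and they differed. PMPCA, the subunit that recognises the presequence, lies at chr9:136410630-136427992 (ENSG00000165688) and gave 11.87, 11.88 and 11.88 in parental libraries, 11.51, 11.53 and 11.55 in those labelled KD and 11.72, 11.73 and 11.80 in those labelled OE. The 3 groups did not overlap. PMPCA fell by 0.35 in the libraries labelled KD (0.787-fold, interval -0.39 to -0.30, limma adjusted p 1.51e-15). With the shift of its chromosomal surroundings taken off, PMPCA was at -0.00018 (limma adjusted p 0.993). PMPCB, the catalytic subunit, gave 12.10, 12.13 and 12.09 in parental libraries, 12.11, 12.07 and 12.08 in those labelled KD and 12.15, 12.13 and 12.14 in those labelled OE. It differed by -0.018 (limma adjusted p 0.441) and the libraries overlapped.

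**Figure D3:**
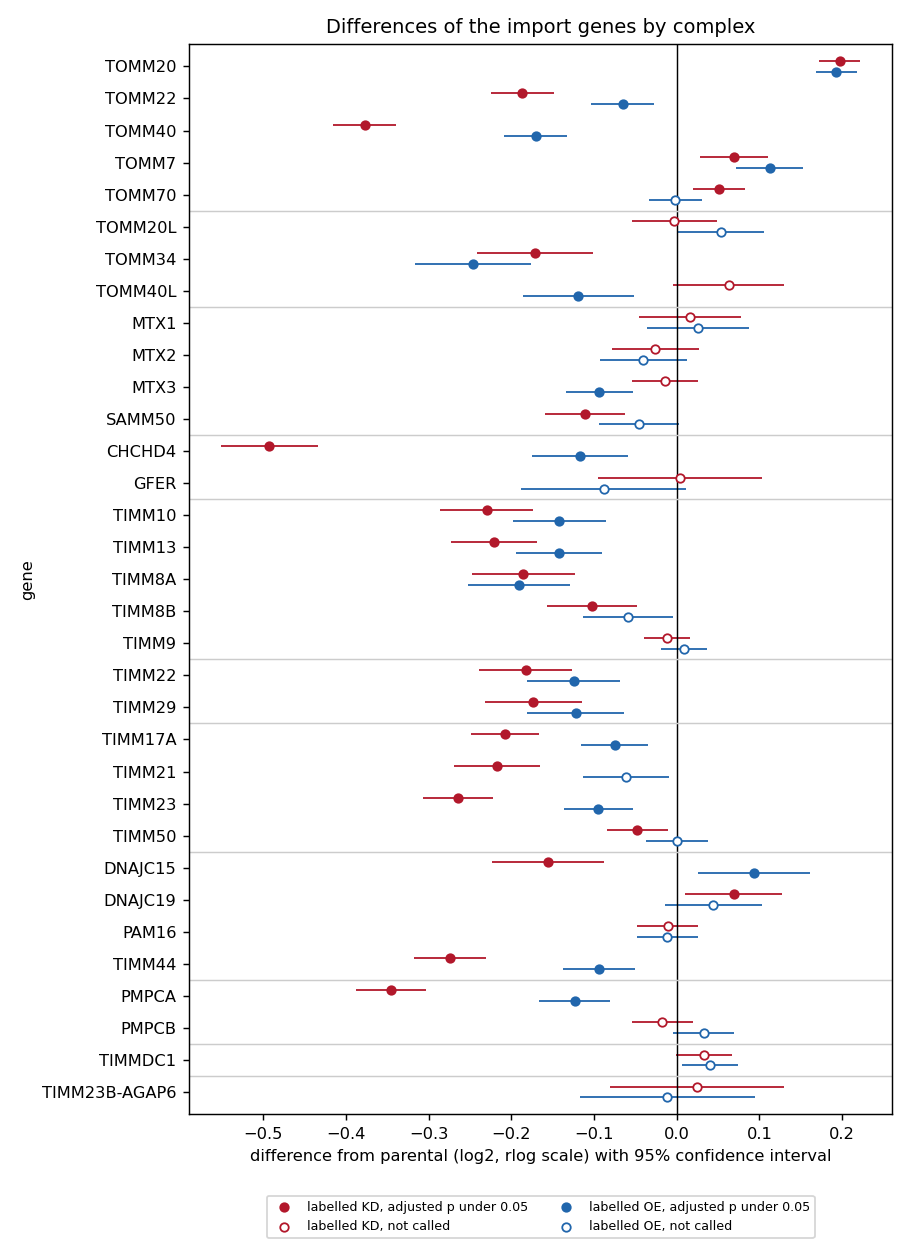
Difference from parental of each of the 33 import genes (horizontal axis, log2 on the rlog scale) with its 95% confidence interval, for the libraries labelled KD and labelled OE, each from 3 libraries against the same 3 parental ones. Filled points have a limma adjusted p under 0.05, among them CHCHD4 at -0.49 and TOMM20 at 0.20 for the libraries labelled KD.

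The comparison of the libraries labelled OE with parental asks the same of the line made to hold more TRAP-1. It uses the same parental libraries, so that the values of both comparisons stand side by side here and are not counted as independent. Of the 33 genes 15 fell (45.5%), 3 rose (9.09%) and 15 were not called. Among all genes 18.0% fell and 16.9% rose. Among 14000 genes with a mean rlog value of at least 5, fitted alone, 27.8% fell and 25.0% rose. By the calls over all genes, 50% of the 30 import genes at that level fell and 10% rose, against 26.3% and 24% of those 14000. The median of the 33 genes was -0.061, against 0.00039 for all genes. By place, 10 of the 19 genes inside the outer membrane fell and 1 rose (median -0.089), and 4 of the 11 outer membrane genes fell and 2 rose (median -0.040). The balance of all genes depends on scaling in this comparison. Of all called genes 48.5% rose, or 36.2% with library medians centred.

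In the values as deposited the largest called decrease was that of TOMM34, which binds precursors and chaperones in the cytosol (ENSG00000025772). It gave 8.79, 8.82 and 8.88 in parental libraries, 8.64, 8.66 and 8.68 in those labelled KD and 8.55, 8.59 and 8.61 in those labelled OE. Parental libraries were highest and those labelled OE lowest. TOMM34 fell by 0.25 in the libraries labelled OE (0.843-fold, interval -0.32 to -0.18, limma adjusted p 6.4e-07). TIMM8A, the deafness-dystonia protein (ENSG00000126953), gave 10.15, 10.17 and 10.12 in parental libraries, 9.998, 9.97 and 9.92 in those labelled KD and 10.04, 9.91 and 9.92 in those labelled OE. Both engineered groups were below parental and overlapped with each other. TIMM8A fell by 0.19 in the libraries labelled OE (interval -0.25 to -0.13, limma adjusted p 5.49e-06) and fell by 0.19 in those labelled KD (limma adjusted p 3.77e-06). With block medians taken off, the difference of TIMM8A in the libraries labelled OE was the larger of the pair, at -0.28 against -0.23 for TOMM34.

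Several genes described above also fell. TOMM40 fell by 0.17 in the libraries labelled OE (interval -0.21 to -0.13, limma adjusted p 5.97e-09), with all of them between parental and those labelled KD. Among the small chaperones, TIMM13 fell by 0.14 (interval -0.19 to -0.091, limma adjusted p 3.1e-05) and TIMM10 by 0.14 (interval -0.20 to -0.086, limma adjusted p 9.43e-05). CHCHD4 fell by 0.12 (limma adjusted p 0.00144), and PMPCA by 0.12 (limma adjusted p 1.36e-05). TIMM23 fell by 0.095 and TIMM44 by 0.094 (limma adjusted p 0.000412 and 0.000677). The other decreases, of TIMM22, TIMM29, TOMM40L, MTX3, TIMM17A and TOMM22, ran from -0.12 to -0.065. TOMM22 was not called under quantile normalization (difference -0.045, limma adjusted p 0.0569). With block medians taken off, PMPCA (-0.025, limma adjusted p 0.301), TIMM44 (-0.041, 0.119) and TOMM22 (-0.024, 0.332) were not called. TIMM13 and TIMM29 were then lower by less, at -0.090 (limma adjusted p 0.00272) and -0.069 (0.0426).

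Increases were few. TOMM20 rose by 0.19 in the libraries labelled OE (interval 0.17 to 0.22, limma adjusted p 3.05e-14) and TOMM7 by 0.11 (interval 0.071 to 0.15, limma adjusted p 3e-05). DNAJC15, lower in the libraries labelled KD, rose by 0.093 in those labelled OE (interval 0.025 to 0.16, limma adjusted p 0.0274). It is the only one of the 33 genes called in opposite directions. The rise of DNAJC15 was no longer called without OE replicate 1 (0.078, limma adjusted p 0.118), OE replicate 3 (0.093, 0.0573) or parental replicate 1 (0.070, 0.158), nor with library medians centred (0.075, 0.0743).

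The direct comparison of both engineered lines tests their difference itself and uses the parental values only in the shared estimate of spread. In the libraries labelled OE 14 of the 33 genes were higher than in those labelled KD (42.4%), 3 were lower (9.09%) and 16 were not called, against 23.5% higher and 23.8% lower among all genes. The median difference of the 33 was 0.048, against 0.00078 for all genes. Among genes inside the outer membrane 11 of 19 were higher and none lower, and in the outer membrane 3 of 11 were higher and 3 lower. CHCHD4 was higher by 0.38 (interval 0.32 to 0.43, limma adjusted p 7.57e-13), DNAJC15 by 0.25 (limma adjusted p 1.45e-07) and PMPCA by 0.22 (limma adjusted p 9.6e-11). With block medians taken off, CHCHD4 was at 0.046 (0.184) and PMPCA at -0.025 (0.261), neither of them called. TOMM40 was higher by 0.21 (limma adjusted p 3.64e-11). TIMM17A, TIMM21, TIMM23 and TIMM50 of the TIM23 complex were higher, led by TIMM23 at 0.17 (limma adjusted p 2.27e-08). So was their partner ROMO1, at 0.16 (6.97e-07), which with block medians taken off was at -0.054 (0.0523). The genes lower in the libraries labelled OE were TOMM40L at -0.18 (limma adjusted p 2.19e-05), MTX3 at -0.079 (0.00112) and TOMM70 at -0.053 (0.00479). With block medians taken off, TOMM70 was at 0.011 (limma adjusted p 0.561) and not called. For TOMM20 the lines differed by -0.0041 (interval -0.029 to 0.021, limma adjusted p 0.819), and for TIMM8A by -0.0054 (interval -0.067 to 0.057, 0.904).

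Of the smaller differences between both engineered lines, 5 were no longer called when any of several libraries was left out. TIMM50, higher by 0.048, was not called without KD replicate 2 (0.046), KD replicate 3 (0.047), OE replicate 2 (0.050) or OE replicate 3 (0.037). Nor was TIMM50 called with library medians centred (0.041, limma adjusted p 0.0671). With block medians taken off its difference was 0.0026 (limma adjusted p 0.916). PMPCB, higher by 0.050, was not called without KD replicate 2 (0.043), KD replicate 3 (0.045) or OE replicate 1 (0.044). SAMM50, higher by 0.066, was not called without KD replicate 2 (0.050), OE replicate 1 (0.055) or OE replicate 3 (0.056). These genes belong to different complexes, the presequence receptor, the peptidase and the barrel insertase. TIMM10, higher by 0.087, was not called without KD replicate 1 (0.064) or OE replicate 2 (0.074). TIMM13, higher by 0.078, was not called without KD replicate 1 (0.068), KD replicate 2 (0.067) or OE replicate 3 (0.050). With no variance trend none of these 5 was called, and 9 of the 33 genes were higher in place of 14.

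The chromosomal surroundings of some import genes moved with them. For each gene the median difference of the genes in the same 20-Mb block was taken from genes with a mean rlog value of at least 8. Around CHCHD4 on chromosome 3 the median was -0.33 in the libraries labelled KD, and around PMPCA on chromosome 9 it was -0.35. The difference of PMPCA thus equals that of its surroundings, and that of CHCHD4 goes beyond them. Around DNAJC19, also on chromosome 3, the median was 0.23, above the gene's own 0.069. Around TOMM40 it was 0.017 and around TOMM20 0.0055.

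With the block medians taken off, 20 of the 33 genes were lower and 2 higher in the libraries labelled KD, against 28.7% lower and 30.2% higher of the 22055 genes that have a block. CHCHD4 was lower by less, at -0.17 (limma adjusted p 8.26e-06), while TOMM40 stayed at -0.39 (limma adjusted p 5.99e-19). PMPCA was at -0.00018 (limma adjusted p 0.993) and TIMM50 at -0.0030 (0.899), neither of them called, and PMPCB was called lower at -0.048 (0.0231). The increases of DNAJC19 and TOMM70 turned into decreases, at -0.16 and -0.042 (limma adjusted p 1.47e-05 and 0.0198). In the libraries labelled OE, PMPCA (-0.025, limma adjusted p 0.301), TIMM44 (-0.041, 0.119) and TOMM22 (-0.024, 0.332) were no longer called, and 12 of the 33 genes were lower and 3 higher, against 16.7% and 21.6% of those 22055. Between both engineered lines 17 of the 33 genes were higher and 2 lower, against 27.8% and 26.0%. PAM16, near the floor, is among the 17, at 0.063 (limma adjusted p 0.015) against -0.00056 as deposited, with a block median of -0.063. The block medians come from well-read genes and were taken off weakly read ones too. At such genes a call can come from the subtraction alone, also within the shares of all genes. The cause of the regional shifts was not tested.

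**Figure D4:**
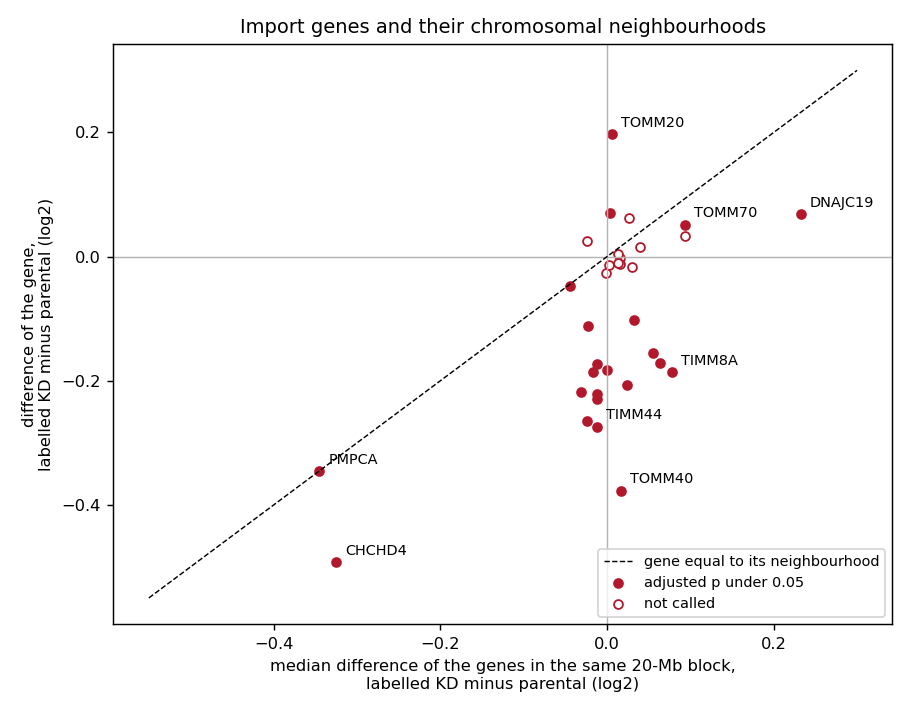
Difference of each import gene between libraries labelled KD and parental (vertical axis, log2) against the median difference of the genes in its 20-Mb block (horizontal axis, log2), 3 libraries a group; the dashed line marks a gene equal to its surroundings. PMPCA lies on that line at -0.35 against -0.35, CHCHD4 below it at -0.49 against -0.33, and TOMM40 far below it.

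Pairs of related genes were compared within each library, as the rlog value of one minus that of the other, so that what both share cancels. No pair could be formed for TIMM17A, TIMM10 and TIMM23, whose paralogues have no value. An exact permutation test of 3 against 3 libraries, two-sided, cannot go below 0.10, so that none of the 14 tests over 7 pairs can pass 0.05. The Benjamini-Hochberg adjusted values of these exact tests were 0.14 in 10 of the 14 and higher in the rest. TOMM40L is a paralogue of the pore gene TOMM40 and gave 9.68, 9.70 and 9.59 in parental libraries, 9.66, 9.78 and 9.72 in those labelled KD and 9.56, 9.51 and 9.55 in those labelled OE. TOMM40L fell by 0.12 in the libraries labelled OE (limma adjusted p 0.00439) and differed by 0.063 in those labelled KD (0.11), where it was called higher without KD replicate 1 (0.094, limma adjusted p 0.0269). The gap of TOMM40 over TOMM40L was 2.60 ± 0.068 in parental libraries, 2.16 ± 0.045 in those labelled KD and 2.55 ± 0.035 in those labelled OE (SD, n = 3, exact p 0.1 and 0.4 against parental). The main pore gene thus lost ground on its paralogue in the libraries labelled KD by more than the spread between replicates.

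The matrix peptidase pair also split. PMPCA minus PMPCB was -0.23 ± 0.023 in parental libraries, -0.56 ± 0.040 in those labelled KD and -0.39 ± 0.052 in those labelled OE (SD, n = 3, exact p 0.1 for each). For the motor's J-domain pair, DNAJC15 minus DNAJC19 was -0.62 ± 0.038, -0.84 ± 0.025 and -0.57 ± 0.061 in the same order (SD, n = 3, exact p 0.1 and 0.4). The libraries labelled KD alone stood apart from parental in that pair. With block medians taken off, the KD difference of the peptidase pair was 0.048 and that of the J-domain pair -0.047. The OE difference of the peptidase pair was then -0.041, against -0.16 as deposited.

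TIMM8B, the close relative of TIMM8A, gave 9.90, 9.96 and 9.95 in parental libraries, 9.83, 9.83 and 9.85 in those labelled KD and 9.89, 9.89 and 9.86 in those labelled OE. It fell by 0.10 in the libraries labelled KD (limma adjusted p 0.00146), with 30.1% of its exonic bases covered by other genes. In those labelled OE it differed by -0.059 (limma adjusted p 0.0906), and was called only without parental replicate 1 (-0.076, limma adjusted p 0.0485) and with library medians centred (-0.077, 0.024). TIMM8A minus TIMM8B was 0.21 ± 0.037 in parental libraries, 0.13 ± 0.048 in those labelled KD and 0.077 ± 0.064 in those labelled OE (SD, n = 3, exact p 0.1 for each).

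TOMM20L, a paralogue of TOMM20, gave 2.31, 2.34 and 2.34 in parental libraries, 2.30, 2.31 and 2.36 in those labelled KD and 2.36, 2.41 and 2.37 in those labelled OE. At such values near the floor its differences say little, and none was called with all libraries. TOMM20 minus TOMM20L was 11.70 ± 0.015, 11.90 ± 0.043 and 11.84 ± 0.027 in parental libraries and those labelled KD and OE (SD, n = 3, exact p 0.1 for each). MTX1, an outer membrane partner of SAMM50, gave 9.10, 9.12 and 9.14 in parental libraries, 9.15, 9.14 and 9.11 in those labelled KD and 9.14, 9.14 and 9.14 in those labelled OE. Its pseudogene MTX1P1 had a higher parental mean than MTX1, 9.98 against 9.12, in values not per length. How reads divide between both was not tested, and 21.9% of the exonic bases of MTX1 are shared. MTX3, its relative, gave 11.72, 11.72 and 11.78 in parental libraries, 11.74, 11.72 and 11.72 in those labelled KD and 11.65, 11.64 and 11.65 in those labelled OE. MTX3 fell by 0.094 in the libraries labelled OE (limma adjusted p 0.000276) and differed by -0.014 in those labelled KD (0.576). MTX1 minus MTX3 was -2.62 ± 0.021, -2.59 ± 0.021 and -2.50 ± 0.0013 in the 3 groups (SD, n = 3, exact p 0.2 and 0.1), and MTX1 minus MTX2 was -1.44 ± 0.029, -1.40 ± 0.023 and -1.37 ± 0.017 (exact p 0.2 and 0.1).

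With all libraries and values as deposited, the genes not called against parental were GFER, MTX1, MTX2, PMPCB, PAM16, TIMM9, TOMM20L, TIMMDC1 and TIMM23B-AGAP6, whose differences lay between -0.089 and 0.053. TIMMDC1 shares the prefix of the TIM genes but helps to assemble respiratory complex I. GFER was called lower in the libraries labelled OE only without parental replicate 1 (-0.16, limma adjusted p 0.0106). For TIMMDC1 the differences were 0.033 and 0.040 (limma adjusted p 0.0962 and 0.0593) in the libraries labelled KD and OE. Under quantile normalization TIMMDC1 was called higher in both (0.052 and 0.056, limma adjusted p 0.00643 and 0.00609), and PMPCB higher in those labelled OE (0.061, 0.00721). TIMMDC1 was also called higher in those labelled OE without parental replicate 1 (0.049, limma adjusted p 0.0486) and among genes with a mean rlog value of at least 5 (0.0341), and lower in those labelled KD with block medians taken off (-0.060, 0.00324).

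Other genes of the route, from a list of 34 of which 32 had a value, were read in the same way. In the libraries labelled KD 20 of these 32 fell (62.5%) and 4 rose (12.5%), with a median of -0.10, against 26.9% and 26.9% of all genes. In those labelled OE 10 fell (31.2%) and 3 rose (9.38%), with a median of -0.025, against 18.0% and 16.9% of all genes. Compared with the libraries labelled KD, 19 were higher (59.4%) and 2 lower (6.25%) in those labelled OE, with a median of 0.091, against 23.5% and 23.8% of all genes. All 6 cytosolic chaperones that bring precursors to the outer membrane fell in the libraries labelled KD. HSP90AA1, the inducible cytosolic HSP90, fell by 0.56 (limma adjusted p 3.14e-31) and DNAJA1, an HSP70 cochaperone, by 0.40 (limma adjusted p 9.78e-22). In the matrix, the motor HSP70 HSPA9 fell by 0.22 and the folding chaperone HSPD1 by 0.33 (limma adjusted p 4.85e-17 and 1.75e-23), both chosen after their values were seen. The largest increases were those of COX18, an inner membrane insertase, by 0.14 (limma adjusted p 0.000287) and MIPEP, which trims some presequences further, by 0.12 (0.000151). The block around COX18 had a median of 0.39, and without it COX18 was lower, at -0.26.

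In the values as deposited, the largest decreases of that list in the libraries labelled OE were those of the delivery chaperones HSPA8 and DNAJA1. Their levels fell by 0.22 each (limma adjusted p 1.29e-18 and 3.61e-14). The block around DNAJA1 had a median of -0.11, and without it DNAJA1 was lower by less, at -0.11. MTCH2, an outer membrane insertase, rose by 0.085 (limma adjusted p 0.001). APOOL, a cristae subunit, rose by 0.080 (limma adjusted p 0.0289), a call lost without parental replicate 1 (0.073), parental replicate 2 (0.063), OE replicate 1 (0.069) or OE replicate 3 (0.076). APOOL was also not called with library medians centred (0.062, limma adjusted p 0.0951) or block medians taken off (0.0095, 0.839). Compared with the libraries labelled KD, HSP90AA1 was higher by 0.38 (limma adjusted p 1.47e-26) and HSPD1 by 0.26 (2.9e-20), while COX18 was lower, at -0.14 (0.000287), as was XPNPEP3, an aminopeptidase of mitochondria, at -0.10 (0.00317). With block medians taken off COX18 was higher there, at 0.31. Without KD replicate 3, 4 genes of the list were lower in that comparison in place of 2, with MIPEP at -0.079 and IMMP2L at -0.080 added. Under quantile normalization, 6 of the 32 fell in the libraries labelled OE in place of 10.

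**Figure D5:**
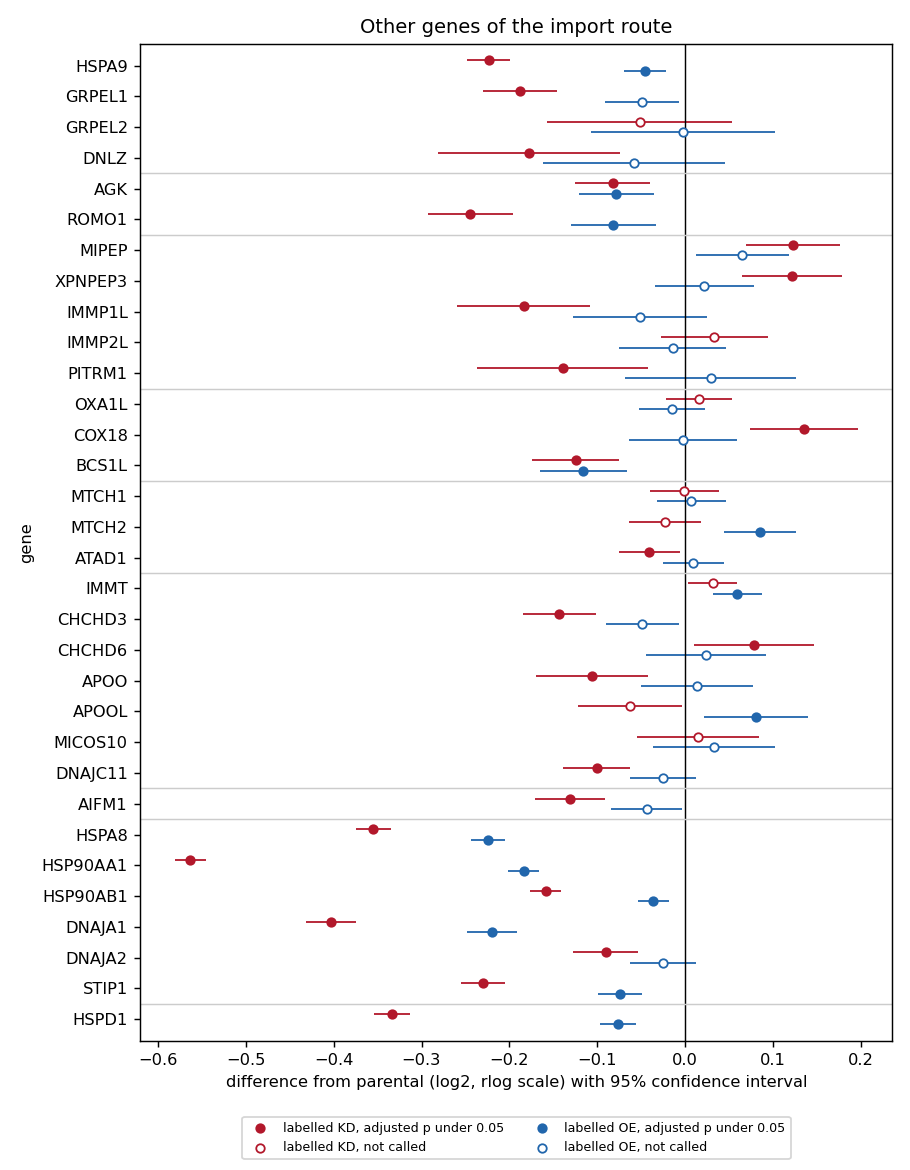
Difference from parental of the 32 other import genes (horizontal axis, log2 on the rlog scale) with its 95% confidence interval, for the libraries labelled KD and labelled OE, each from 3 libraries against the same 3 parental ones. Filled points have a limma adjusted p under 0.05, and HSP90AA1 lies lowest, at -0.56 for the libraries labelled KD.

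The promoters shown near the start were searched with those of the other import genes for letters that known factors bind. The table of RefSeq promoters used here matched 32 of the 33, all but TIMM8B, and holds 27305 promoters of the same length in all. The motifs were chosen after the promoters had been looked at, CCAAT after the TOMM40 promoter had been read, and both strands were searched. The nuclear respiratory factor 1 core CGCATGCG was in 3 of the 32 (9.38%) against 1.86% of all promoters, and its shifted form GCGCATGC, which overlaps it, in 4 (12.5%) against 2.81%. The ETS motif CCGGAAGT was in 6 (18.8%) against 3.64%, and the E-box CACGTG in 2 (6.25%) against 6.49%. Both first factors are known for driving nuclear genes of mitochondrial proteins. The heat-shock forms TTCNNGAA and GAANNTTC were in 3 (9.38%) and 0 (0%), against 6.72% and 5.85%. The ATF4 composite TGATGCAA was in 2 (6.25%) against 0.82%, and CCAAT in 10 (31.2%) against 33.0%. Of all promoters 99 (0.363%) hold at least 5 CCAAT matches, and TOMM40 is the only import gene among them. Of the 32, 17 were lower in the libraries labelled KD and 15 were not. In that order the nuclear respiratory factor 1 core was in 1 and 2, its shifted form in 1 and 3, and ETS in 2 and 4. The E-box was in 0 and 2, TTCNNGAA in 2 and 1, the ATF4 composite in 1 and 1, and CCAAT in 7 and 3. The promoters were not matched for base content, and no share was tested. A match describes letters in this window and says nothing of binding.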

How the data were processed

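RNA was read from 9 libraries, 3 each of parental cells and of the lines labelled KD and OE. Per the methods of the study, the authors trimmed with cutadapt, aligned to build GRCh38 by HISAT2, assigned reads to genes by featureCounts and removed genes with few reads. The deposited log2 values are named as rlog values, and the labels list DESeq2 among the tools, without versions. These values were fitted without further filter in limma 3.58.1 under R 4.3.3, with 1 mean per group over all 9 libraries and a variance trend. Two-sided p-values were adjusted by Benjamini-Hochberg over 22290 genes and called under 0.05. Values in every library are given for TRAP1, for the 5 largest called changes of the import genes in each direction against parental, for genes called in opposite directions, and for both genes of a related pair where either is called. The 2 largest changes in each direction are named for the other import genes. Further genes named were chosen after their values were seen. The import genes and all lists were chosen with earlier results of these data known. Alternatives were no variance trend, a robust variance prior, a mean rlog value of at least 5, centred medians, quantile normalization, only the 6 libraries compared, a replicate block, 20-Mb block medians removed, an adjusted p under 0.01, and leaving out each library.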

Additional observations from a re-analysis of the deposited data

How the results depend on the processing

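Of 99 comparisons of an import gene, 57 were called, and 41 of these were called in the same direction under all 18 alternatives run. Taking off the median of each 20-Mb block changed most. It reversed, for the libraries labelled KD against parental, DNAJC19 (-0.16), TIMMDC1 (-0.060), TOMM70 (-0.042), DNLZ (0.17), ROMO1 (0.085), COX18 (-0.26) and APOO (0.0052). For OE against parental it reversed ROMO1 (0.031). For OE against KD it reversed DNAJC19 (0.21), PMPCA (-0.025), TOMM70 (0.011), DNLZ (-0.13), ROMO1 (-0.054) and COX18 (0.31). PAM16, near the floor and at -0.00056 as deposited, went to 0.063 there, close to the size of its block median of -0.063. With it 2 import genes were higher in KD, and 1 other import gene was higher in OE in place of 3. The paralogue differences that moved were TIMM8A minus TIMM8B in OE (-0.23), MTX1 minus MTX2 in KD (0.00096), MTX1 minus MTX3 in KD (-0.0065) and OE (0.15), DNAJC15 minus DNAJC19 in KD (-0.047), and PMPCA minus PMPCB in KD (0.048) and OE (-0.041). The cause was not tested.

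Quantile normalization gave 5 import genes higher in OE in place of 3, 6 other import genes lower in OE in place of 10, and 0.090 for MTX1 minus MTX3 in OE. It brought HSP90AA1 and HSP90AB1 in OE to 0. Quantile normalization gives a gene of the same rank in each library the same value. Such a 0 can come from equal ranks alone and says nothing of their levels. With no variance trend 9 import genes were higher in OE than in KD in place of 14. The cause was not tested. Leaving out each library in turn gave 2 to 4 import genes higher in KD, the lowest without parental replicate 1, and 2 to 4 other import genes lower in OE than in KD, the highest without KD replicate 3.

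Replicate numbers do not pair the libraries. Residuals of libraries with the same number correlated at -0.046 to 0.10 over genes, and 4 of 9 libraries were closest to one with their own number. With a replicate block 18 import genes fell and 4 rose in KD, 15 fell and 3 rose in OE, and 14 were higher and 3 lower in OE than in KD, as without it. Among other import genes MIPEP in OE was then called, at 0.065 (limma adjusted p 0.0464), and DNLZ in OE against KD, at 0.12 (0.0322). The table gives rlog values without counts, so the precision that depth allows cannot be given. TIMM9, PAM16 and TOMM20L lie near the floor, where shrinkage leaves little room for a difference.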

Other observations

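The receptor TOMM20 and the pore TOMM40 of the outer membrane moved apart, a pair chosen after their values were seen and given without a test. TOMM20 minus TOMM40 was 1.76, 1.80 and 1.76 in parental libraries on the rlog scale. It was 2.39, 2.34 and 2.31 in those labelled KD and 2.17, 2.15 and 2.09 in those labelled OE. The 3 groups did not overlap.

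The pseudogenes and long non-coding RNAs that share these symbols were not called in any comparison. MTX1P1, a pseudogene of MTX1, had a mean rlog value of 9.98 ± 0.076 in parental libraries (SD, n = 3). TOMM20P4 averaged 7.68 ± 0.060 and DNAJC19P9 3.05 ± 0.030. Of the long non-coding RNAs, TOMM20L-DT averaged 4.04 ± 0.035 and TIMMDC1-DT 2.71 ± 0.011.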
